A study of Mus musculus with 12 samples.

Results

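Transcripts of 44 mouse genes that build the kinetochore, run the spindle checkpoint, separate sister chromatids and complete cytokinesis were examined in lung RNA. The genes were taken by symbol from a list arranged by role, and all 44 were found among the 54532 genes of the deposited count table and had enough counts to be tested with 16185 genes in all. The list was drawn up with earlier results of these data known. Bulk RNA sequencing covered 12 mouse lung samples, 6 labelled control and 6 labelled acute lung injury (ALI), in which the alveolar wall is inflamed and becomes leaky. The series design concerns seawater drowning as the cause, and the labels give no strain, age, exposure dose, sampling time or pooling of animals. Whether each sample is 1 animal is likewise unstated; the p-values cover the variation among these samples only, part of which may be technical.

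Samples held 15707937 to 19706494 counts. Transcripts of alveolar type 2 cells, a defining cell of lung, were abundant, and their 7 listed markers summed to between 19196 and 28272 CPM (counts scaled to the normalised library size) in every sample. Control 5 stood apart, with 2858 CPM of Ucp1, a gene of brown adipose tissue, and 9.85% of its counts on mitochondrial genes against 1.62% to 3.18% in the other samples. ALI 2 held 59.2 CPM of the adipocyte gene Adipoq. Results that rest on these samples are given with and without them.

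Mitosis depends on kinetochores, protein assemblies on each centromere that hold spindle microtubules. Until every kinetochore is attached, the spindle checkpoint keeps the anaphase promoting complex, a ubiquitin ligase, inactive. Its activation destroys securin and cyclin B, separase cuts cohesin, condensin keeps the chromosomes compact, and the central spindle directs the cleavage furrow. Most of these proteins are made only as cells approach division, so their transcripts are scarce in resting adult lung and serve as markers of dividing cells.

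In ALI all 44 genes were higher than in control (edgeR, adjusted p from 1.43e-08 for Cdca8 to 0.0445 for Cenpw), where 18.9% of all genes tested were called higher. Their median log2 fold change was 2.36, a 5.12-fold rise, beside -0.06 over all genes tested. A rise of at least 4-fold was seen in 31 of the 44 (2.96% of all genes tested were called higher at this size) and of at least 8-fold in 8 (0.816%). In 42 of the 44 the lowest ALI sample exceeded the highest control, as in 13.1% of all genes tested, and in none did all ALI samples lie below the controls, as in 8.25%. Cenpk and Cenpw were the exceptions. In bulk tissue more dividing cells and more RNA per cell cannot be told apart.

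Summed over the 44 genes, controls held 199.5 to 339.5 CPM (median 272.3) and ALI samples 1188 to 1428 CPM (median 1292). The lowest ALI sample was thus far above the highest control. The control sums ran from control 5 at the bottom to control 6 at the top, and the ALI sums from ALI 6 to ALI 2.

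**Figure D1:**
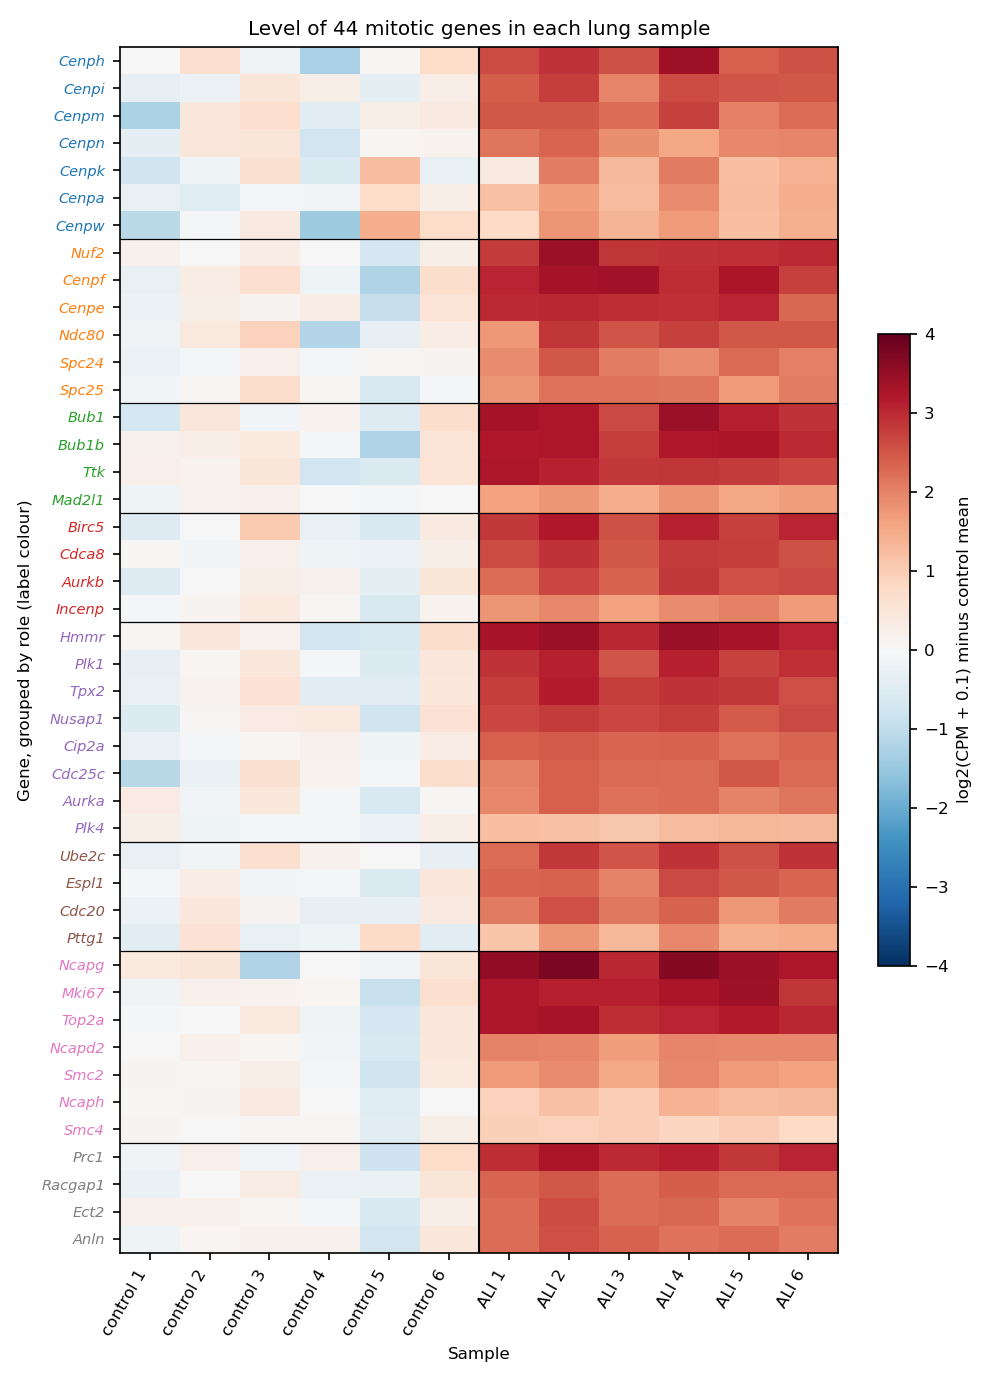
Colour gives log2(CPM + 0.1) of each gene (vertical axis, grouped by role in the order centromere and inner kinetochore, outer kinetochore, checkpoint, chromosomal passenger complex, kinases and spindle, anaphase promoting complex, condensin, cytokinesis) in each of the 12 samples (horizontal axis), minus that gene's control mean. The 6 ALI columns are red throughout, palest for Smc4, Plk4 and Ncaph and for Cenpk and Cenpw in ALI 1, while control 5 is pale blue for most genes and red for Cenpk, Cenpa, Cenpw and Pttg1.

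The centromere and inner kinetochore genes included the 3 with the widest relative spread among controls, Cenpw, Cenpk and Cenph (coefficients of variation 76.9%, 67.9% and 50.9%). All 7 rose, by a median log2 fold change of 1.98, and their summed level went from 10.5 to 22.4 CPM in controls to 43.9 to 63.7 CPM in ALI. Cenpa (ENSMUSG00000029177, chr5:30666777-30674830, plus strand), the histone variant that marks the centromere, was read at 6.01 to 14.2 CPM in controls (median 7.92) and at 19.4 to 32.05 CPM in ALI (median 22.1). Its groups did not overlap, with control 5 the highest control. The log2 fold change was 1.44 ± 0.20 (SE, adjusted p = 6.13e-05), and 1.61 without control 5. Cenph had the largest rise here and came from near absence, 0.117 to 0.780 CPM in controls (median 0.441) against 2.66 to 5.51 CPM in ALI (median 3.07), a log2 fold change of 2.85 ± 0.34 (SE, adjusted p = 1.50e-05). It encodes a subunit of the constitutive centromere-associated network, the inner layer on which the outer kinetochore is built. Its control values rest on few reads, 49 in all and 2 in the poorest library.

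Cenpi, Cenpm and Cenpn, of the same network, rose by 2.52, 2.34 and 1.98 on the log2 scale. Cenpk rose by 1.45 ± 0.42 (SE, adjusted p = 0.0134; 1.81 and adjusted p = 0.00107 without control 5), from 0.325 to 1.65 CPM in controls (median 0.530) to 0.866 to 3.06 CPM in ALI (median 1.79). The groups overlapped, with controls 3 and 5 above ALI 1 and control 5 also above ALI 5. Cenpw, which pairs with Cenpt in a histone-fold complex, was read at 0.235 to 2.32 CPM in controls (median 0.891) and at 1.44 to 2.94 CPM in ALI (median 2.23), again with control 5 inside the ALI range. Its log2 fold change of 1.19 ± 0.43 (SE, adjusted p = 0.0445) was the weakest call of the 44. Leaving out controls 1, 2, 3 or 4, or ALI 2, 3, 4, 5 or 6, in turn ended that call (log2 fold change 0.98 to 1.23, adjusted p = 0.0613 to 0.0875). Without control 5 it rose by 1.59 (adjusted p = 0.00297).

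The outer kinetochore genes rose by a median of 2.64 log2 units, all 6 of them without overlap between groups. Nuf2 (ENSMUSG00000026683, chr1:169497934-169531464, minus strand), a coiled-coil arm of the NDC80 complex that grips microtubules, went from 1.12 to 2.30 CPM in controls (median 1.98) to 13.5 to 20.7 CPM in ALI (median 14.5). Its 8.07-fold rise was the largest in the complex, with ALI 2 well above the other 5 ALI samples. Spc24, in the part of the complex that faces the centromere, was read at 2.002 to 2.73 CPM in controls (median 2.38) and at 8.99 to 13.8 CPM in ALI (median 9.97). Its partner Spc25 had the smallest rise of the layer, from 1.95 to 5.03 CPM (median 3.06) to 10.3 to 14.3 CPM (median 13.4), a log2 fold change of 1.99 ± 0.19 (SE, adjusted p = 1.98e-06). Ndc80 itself rose by 2.43 ± 0.30. Of the corona proteins, the motor Cenpe rose by 2.85 ± 0.22 and Cenpf by 3.01 ± 0.27.

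Of the checkpoint genes, Bub1, Bub1b and Ttk each rose by more than the median of the list. Bub1 (ENSMUSG00000027379, chr2:127801122-127831865, minus strand), a kinase that marks centromeric chromatin and recruits checkpoint proteins, was read at 0.974 to 2.73 CPM in controls (median 1.68) and at 10.7 to 18.6 CPM in ALI (median 15.5). That is an 8.59-fold rise, with the lowest ALI sample 3.92 times the highest control. Bub1b, whose product BubR1 blocks Cdc20, went from 1.42 to 5.07 CPM (median 4.08) to 24.4 to 34.6 CPM (median 33.1). Control 5 was the lowest control for this gene and the groups stood well apart. Ttk, the kinase Mps1 at the top of the checkpoint, rose by 2.93 ± 0.24. Mad2l1, the Mad2 protein that is converted at unattached kinetochores, was already present at 6.38 to 8.36 CPM in controls (median 7.15) and reached 20.1 to 25.6 CPM in ALI (median 22.9). Its log2 fold change of 1.65 ± 0.10 (SE, adjusted p = 5.85e-08) was the smallest of the 4 checkpoint genes.

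The chromosomal passenger complex corrects faulty attachments and later acts at the midzone. Its 4 genes rose by a median of 2.64 log2 units, from a summed 12.3 to 23.9 CPM to 74.2 to 97.3 CPM. Birc5 (ENSMUSG00000017716, chr11:117849251-117855743, plus strand), which encodes survivin, went from 1.42 to 4.64 CPM in controls (median 1.995) to 13.4 to 20.9 CPM in ALI (median 17.6), with control 3 the highest control. Incenp, the scaffold that holds the complex together, was higher at the outset, at 6.37 to 12.7 CPM (median 10.25), and reached 30.0 to 39.4 CPM (median 34.5). Its log2 fold change was 1.80 ± 0.14 (SE, adjusted p = 2.83e-07). Aurkb, the kinase subunit, rose by 2.55 ± 0.18, and Cdca8, or borealin, by 2.72 ± 0.13.

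The 8 kinases and spindle proteins rose by 1.22 to 3.22 log2 units. Hmmr (ENSMUSG00000020330, chr11:40701395-40733422, minus strand), a spindle protein also known as a hyaluronan receptor, rose 9.34-fold, from 1.115 to 3.29 CPM in controls (median 2.15) to 16.8 to 22.8 CPM in ALI (median 20.5). No ALI sample came near the control range. Plk1, the kinase that drives mitotic entry and spindle assembly, went from 1.72 to 3.51 CPM (median 2.54) to 15.1 to 22.8 CPM (median 19.8). Plk4, which starts centriole duplication, was read at 6.90 to 9.87 CPM in controls (median 7.89) and at 17.2 to 20.5 CPM in ALI (median 19.3), a log2 fold change of 1.22 ± 0.11 (SE, adjusted p = 1.02e-06). It was the smallest rise of this group. Aurka, the centrosomal kinase, rose by 2.14 ± 0.17, its activator Tpx2 by 2.80 ± 0.19 and the microtubule bundler Nusap1 by 2.60 ± 0.21. Cdc25c, the phosphatase that activates the mitotic kinase Cdk1, rose by 2.34 ± 0.30 from only 53 control reads, and 12.7% of its exon bases are shared with another annotated gene. Cip2a, an inhibitor of protein phosphatase 2A, rose by 2.36 ± 0.12.

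The genes that trigger anaphase rose by a median of 2.26 log2 units. Cdc20 (ENSMUSG00000006398, chr4:118432901-118437352, minus strand), the activator of the anaphase promoting complex, went from 6.10 to 10.3 CPM in controls (median 7.34) to 25.6 to 46.4 CPM in ALI (median 33.2). Its mean level per kilobase came second to Smc4 in both groups, at 4.20 and 18.8 CPM per kilobase, in ALI level with Mki67 at 18.8. Ube2c, the ubiquitin-conjugating enzyme of the complex, rose most, from 3.57 to 7.05 CPM (median 4.29) to 21.5 to 34.1 CPM (median 29.8). Of its exon bases 22.8% overlap Tnnc2 on the other strand, and the use of strand in counting is not stated, which makes its level less certain. Pttg1, the securin that restrains separase, rose least, from 2.38 to 5.62 CPM (median 2.75) to 7.22 to 12.8 CPM (median 9.12), a log2 fold change of 1.48 ± 0.24 (SE, adjusted p = 0.000245). Control 5 was its highest control, and without that sample the change was 1.66. Espl1, the separase itself, rose by 2.36 ± 0.17.

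Condensin and chromosome structure genes held the largest and the smallest rise of the list. Ncapg (ENSMUSG00000015880, chr5:45669919-45700546, plus strand), a HEAT-repeat subunit of condensin I, went from 0.437 to 1.62 CPM in controls (median 1.315) to 9.86 to 16.6 CPM in ALI (median 13.7). The 11.0-fold rise (log2 fold change 3.46 ± 0.26, SE, adjusted p = 2.10e-07) put the lowest ALI sample at 6.10 times the highest control; 13.4% of its exon bases overlap Lcorl on the other strand. Smc4 (ENSMUSG00000034349, chr3:69004738-69034623, plus strand), an ATPase arm shared by both condensins, had the highest level per kilobase of the list in controls, and was read at 41.4 to 66.0 CPM (median 58.0), and reached 98.3 to 110.3 CPM in ALI (median 107.8). Its groups did not overlap either, yet its 1.87-fold rise (log2 fold change 0.90 ± 0.10, SE, adjusted p = 4.82e-06) was the smallest. Its ATPase partner Smc2 rose by 1.69 ± 0.16, and the condensin I subunits Ncapd2 and Ncaph by 1.87 ± 0.14 and 1.17 ± 0.14. Top2a, which untangles sister DNA, and Mki67, which coats mitotic chromosomes, rose by 3.09 and 3.10.

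The 4 cytokinesis genes rose by 2.25 to 2.98 log2 units, a narrower range than in any other role, and their sum went from 18.1 to 37.4 CPM to 135.7 to 175.7 CPM. Prc1 (ENSMUSG00000038943, chr7:80294450-80316259, plus strand), which bundles the antiparallel microtubules of the central spindle, went from 2.25 to 6.86 CPM in controls (median 4.23) to 29.9 to 40.3 CPM in ALI (median 33.75), with 11.1% of its exon bases shared with Rccd1 on the other strand. Racgap1, the GTPase-activating subunit of centralspindlin, was read at 7.20 to 12.04 CPM in controls (median 7.98) and at 41.6 to 49.1 CPM in ALI (median 43.0). Anln, the scaffold of the contractile ring, followed closely, from 5.397 to 12.4 CPM (median 9.82) to 37.9 to 54.5 CPM (median 42.8). In each of these genes the lowest ALI sample was more than 3 times the highest control. Ect2, which activates the GTPase RhoA at the furrow, rose by 2.27 ± 0.15.

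**Figure D2:**
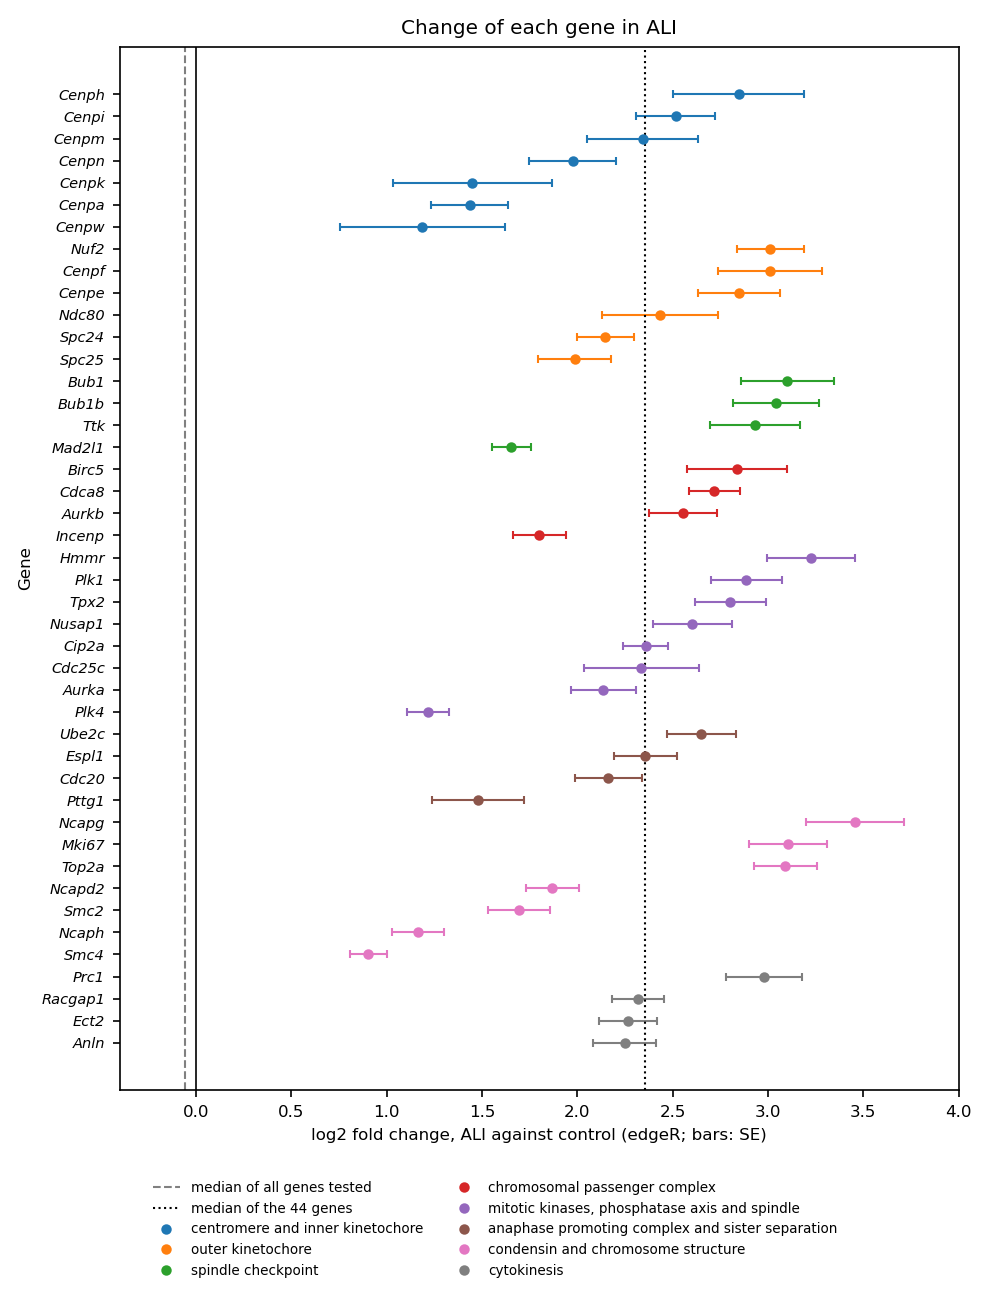
Points give the log2 fold change of each of the 44 genes in ALI against control (horizontal axis) with SE bars, coloured by role. All lie to the right of 0, from Smc4 at 0.90 to Ncapg at 3.46, and the bars are longest for Cenpw and Cenpk.

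Levels can be compared between genes only per length, and CPM per kilobase of exon union understates genes with long rare exons. On that scale the 4 subunits of the NDC80 complex were unequal in both groups. In controls Spc24 and Spc25 stood at 0.926 ± 0.101 and 1.003 ± 0.316 CPM per kilobase (SD, n = 6), above Ndc80 at 0.244 ± 0.117 and Nuf2 at 0.299 ± 0.0663. In ALI the levels were 4.11 ± 0.727 for Spc24, 3.997 ± 0.556 for Spc25, 1.33 ± 0.320 for Ndc80 and 2.44 ± 0.416 for Nuf2. Within condensin I the range was wider, with Smc4 at 10.9 ± 1.58 and Ncapg at 0.173 ± 0.0648 CPM per kilobase in controls. In ALI Smc4 stood at 20.4 ± 0.943, Smc2 at 8.55 ± 0.937, Ncapd2 at 6.88 ± 0.492, Ncaph at 4.82 ± 0.608 and Ncapg at 1.91 ± 0.363. The order of these 5 subunits differed between groups only in that Ncapd2 lay below Ncaph in controls (1.88 ± 0.420 and 2.15 ± 0.396), by less than their spread.

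Samples of a group kept a loose order across the list. Among ALI samples, ALI 2 was highest for 19 genes and ALI 4 for 14, while ALI 3 was lowest for 16 and ALI 1 for 11. Among controls, control 6 was highest for 25 genes and control 3 for 14. Control 5 was lowest for 24 genes and highest for 4, namely Cenpa, Cenpk, Cenpw and Pttg1. Control 5 also carries the adipose transcripts; their part in this order was not tested. Without control 5 and ALI 2 all 44 genes were again higher, by a median of 2.29.

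Ratios of counts within a sample do not depend on library scaling, and 22 were compared, each between a listed gene and a paralog, a partner or another listed gene. In ALI 18 ratios were higher and 1 was lower (2-sided exact permutation of 6 against 6, adjusted over the 22 ratios). All 18 had the smallest p this design allows, exact p = 0.00216, adjusted p = 0.00265, with no overlap between groups. The pairs were chosen with earlier results of these data known, so these p-values are not separate support for the rise of the listed genes. Top2a rose against Top2b, the topoisomerase of resting cells, from a log2 ratio of -3.88 to -3.19 in controls to -0.61 to -0.08 in ALI, a 9.02-fold shift. Bub1b rose 8.88-fold against its binding partner Bub3, and Cenph 6.08-fold against the inner kinetochore scaffold Cenpc1. Cdc20 rose 3.42-fold against Fzr1, the activator that takes over from it after anaphase. In these pairs the second gene changed little, with log2 fold changes of -0.05 for Top2b, -0.03 for Bub3, 0.33 for Cenpc1 and 0.40 for Fzr1, of which Fzr1 was called.

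Condensin I genes rose against their condensin II counterparts. The ratio of Ncapg to Ncapg2 rose 2.83-fold, of Ncapd2 to Ncapd3 2.34-fold and of Ncaph to Ncaph2 1.93-fold. Against the related cohesin subunits, the ratio of Smc2 to Smc3 rose 3.35-fold and of Smc4 to Smc1a 1.80-fold. Other ratios that rose were Ect2 to Rhoa (4.59-fold), Cip2a to the phosphatase 2A scaffold Ppp2r1a (5.10-fold), Ube2c to Cdc27 (5.31-fold), Ndc80 to Mis12 (4.40-fold), Cdc25c to Cdc25b (4.11-fold), Cenpa to Cenpb (3.16-fold) and Mad2l1 to Mad1l1 (2.64-fold). Between listed genes, Plk1 rose against Plk4 3.22-fold and Aurkb against Incenp 1.69-fold.

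Pttg1 fell against Espl1, securin against the protease it restrains. The log2 ratio was -0.35 ± 0.77 in controls and -1.19 ± 0.25 in ALI (SD, n = 6), and the groups overlapped (exact permutation p = 0.0152, adjusted p = 0.0175). Without control 5 the difference was -0.58 in place of -0.85. Aurka against Aurkb lay at the threshold, with a difference of -0.41 (exact permutation p = 0.0455, adjusted p = 0.05). It passed without control 4, 5 or 6 or ALI 3, and its adjusted p reached 0.124 without ALI 4 or without ALI 5. Without control 1 the difference was -0.24 (adjusted p = 0.0929, exact permutation). The ratios of Ndc80 to Spc24 and of Racgap1 to Anln were not called, with differences of 0.41 (exact permutation p = 0.236, adjusted p = 0.247) and 0.06 (exact permutation p = 0.660, adjusted p = 0.660).

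**Figure D3:**
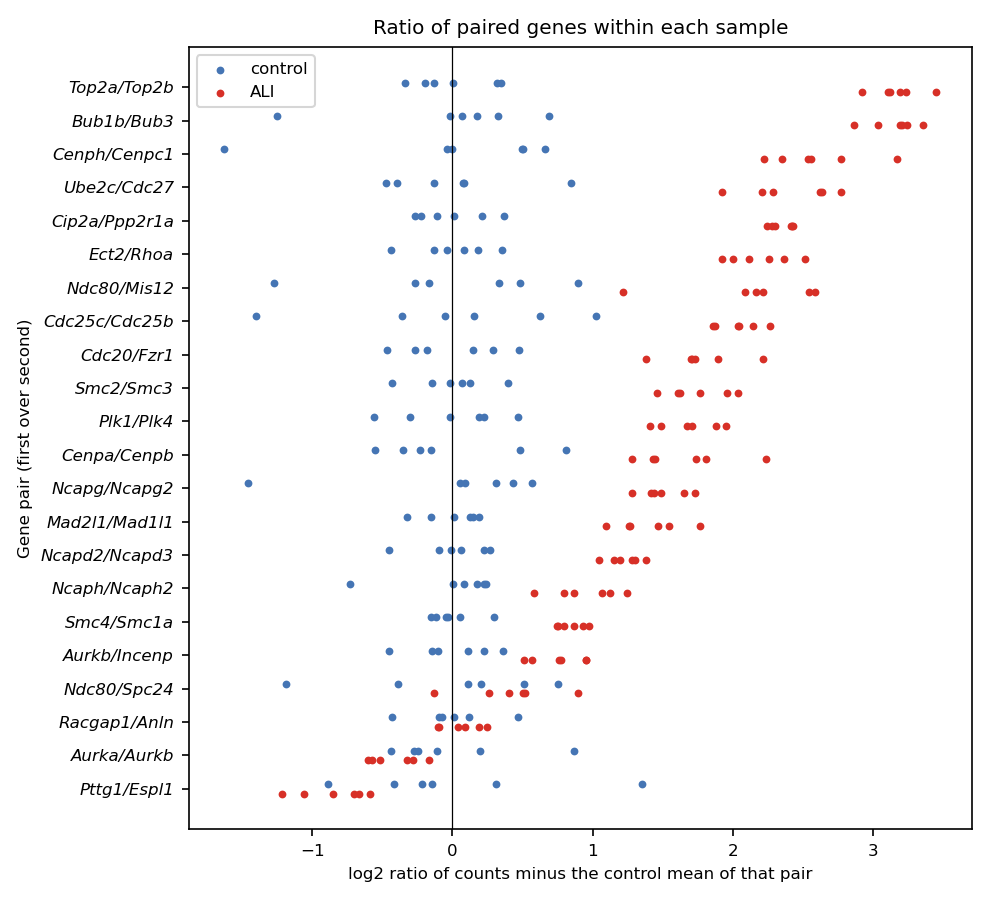
Points give the log2 ratio of counts of a gene pair within each of the 6 control (blue) and 6 ALI (red) samples, minus the control mean of that pair (horizontal axis). Red and blue separate in 18 of the 22 pairs, by most for Top2a over Top2b, and overlap for Ndc80 over Spc24, Racgap1 over Anln, Aurka over Aurkb and Pttg1 over Espl1.

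Other genes of the same pathways were read in 13 lists, 170 genes in all, beside 18.9% of all genes tested called higher and 17.7% lower. The mitotic kinesins came closest to the 44 genes, with 12 of 12 higher and a median log2 fold change of 2.47; the 3 with the smallest p, Kif22, Kif4 and Kif15, rose by 2.46, 2.25 and 2.48. Among other outer kinetochore genes 10 of 13 rose and none fell, with a median of 1.86. Knl1, the scaffold that carries the checkpoint proteins, rose by 3.10, Ska1, which strengthens microtubule attachment, by 2.80, and Spdl1, which brings dynein to the kinetochore, by 2.31. Of 15 other centromere genes 8 rose and none fell, with a median of 0.39. There Oip5, which takes part in loading the centromeric histone, rose by 1.80 and Cenpl, of the inner kinetochore network, by 1.16. These medians were not tested against each other.

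Of the DNA replication genes 19 of 20 rose, by a median of 1.11, with Rrm2, a subunit of ribonucleotide reductase, at 2.85, the helicase subunit Mcm6 at 1.58 and the chromatin assembly factor Chaf1a at 1.57. Of 12 cyclins and their kinases 7 rose and none fell, among them Ccna2 (3.06), Cdk1 (2.82) and Ccnb1 (3.49). Among 17 further genes of the anaphase promoting complex 3 rose and 1 fell, where 18.9% of all genes tested were called higher and 17.7% lower, so the rises are near that background. Fbxo5, an inhibitor of the complex, rose by 1.25, Fzr1 by 0.40 and Cdc27 by 0.25, while Anapc16 fell by 0.36. Of 14 cohesin genes 4 rose, among them Esco2 (2.58) and Cdca5 (2.83), which establish and hold cohesion in S and G2 phase, and Sgo2a (2.51), which protects it at centromeres. Of the 3 condensin II subunits, Ncapg2 rose by 2.01 and Ncapd3 by 0.66.

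In the remaining lists only a few genes moved as far as the 44, and their counts stand beside 18.9% of all genes tested called higher. Of 20 spindle and centrosome genes 15 rose (median 0.38), with Tacc3 at 1.87, Ckap2l at 2.69 and Ckap2 at 2.71. Of 9 cytokinesis genes tested 4 rose (median 0.14), with Shcbp1 at 3.11, Cep55, which recruits the abscission machinery, at 2.87, and the septin Sept9 at 0.66. Of 12 genes that control mitotic entry and exit by phosphorylation 4 rose (median 0.03), with Mastl, the kinase that restrains phosphatase 2A, at 2.77, Cdc25b at 0.40 and Ppp1cc at 0.37. Among 4 checkpoint partners only Trip13, which disassembles Mad2 complexes, was called, at 1.83. The shares of the checkpoint partners and of the mitotic entry and exit genes came nearest to that of all genes. The transcriptional regulators of these genes rose in 10 of 19 cases (median 0.31). E2f8 rose by 2.88, Mybl2 and Foxm1, which switch on genes of G2 and mitosis, by 2.11 and 2.31, and Lin52, a subunit of the MuvB core that both bind, fell by 0.75.

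**Figure D4:**
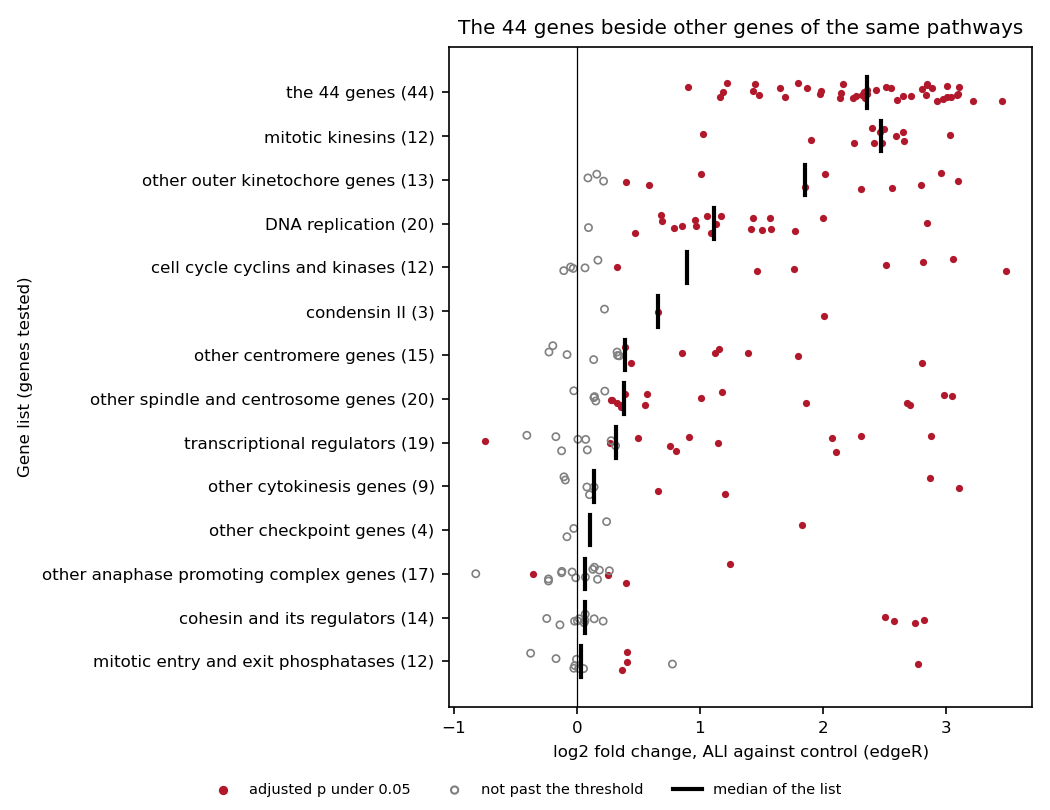
Each point is a gene, with its log2 fold change in ALI against control on the horizontal axis, in the 44 genes and in 13 other lists (vertical axis, the 44 genes on top and the others ordered by median). Filled red points passed an adjusted p under 0.05, and black bars are medians, from 2.47 for mitotic kinesins and 2.36 for the 44 genes to 0.03 for the phosphatase list.

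Because the 44 genes moved together, their promoters were searched for motifs known from cell cycle genes. Genes of late G2 and mitosis are known to carry a cell cycle genes homology region (CHR), the site of the MuvB core, often downstream of CCAAT boxes bound by the factor NF-Y, whereas genes of S phase are known for E2F sites. RefSeq promoter windows on GRCm38.p6, from 250 bases before to 50 after each start, were matched for 38 of the 44 genes, 42 windows in all. Ect2, Prc1 and Cenpk have several windows, each counted. Those of Ect2 and of Prc1 overlap, so some of their matches are counted again in the shares. A CHR (the letters TTTGAA, or as a variant TTCGAA, on both strands) was found in 28 of the 42 windows, or 66.7%, against 19.2% of all 32851 promoter windows. CCAAT was found in 33, or 78.6%, against 37.4%, and both together in 26, or 61.9%, against 7.52%. An E2F core (any of the letters TTCCCGC, the variant TTCGCGC, the variant TTGGCGC and the variant TTGCCGC, on both strands) was found in 13, or 31.0%, against 9.57%. A CCAAT match overlapped a CHR match in 2 windows and an E2F match in 2.

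Of the 37 CHR matches 26 lay within 60 bases of the RefSeq start, where sites in the overlapping windows of Ect2 and Prc1 count in each window. The share near the start was not compared with that of all promoters. In the DNA replication list the E2F core was in 14 of 18 windows (77.8%) and the CHR in 3 (16.7%), and in the mitotic kinesins the CHR was in 10 of 11 (90.9%). CCAAT was about as common in the DNA replication windows (77.8%) as in those of the 44 genes, and was in 63.6% of the kinesin windows. These are matches of letters, not bound sites, and the shares were not tested. The windows matched for Nuf2, Mad2l1, Birc5, Nusap1 and Pttg1 held none of the motifs.

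The stretches below are those of listed genes in which a CHR and a CCAAT both fall within the 120 bases before the RefSeq start. Each is printed up to the base before that start so that the spacing can be read. They run 5′ to 3′ along the strand of the gene, and capitals mark CCAAT (or ATTGG on the other strand) and CHR matches. Coordinates are GRCm38.
Cdc20 (chr4:118437344-118437463, minus strand): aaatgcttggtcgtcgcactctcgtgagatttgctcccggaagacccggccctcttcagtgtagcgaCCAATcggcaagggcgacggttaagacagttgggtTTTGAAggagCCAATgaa
Cenpn (chr8:116921620-116921739, plus strand): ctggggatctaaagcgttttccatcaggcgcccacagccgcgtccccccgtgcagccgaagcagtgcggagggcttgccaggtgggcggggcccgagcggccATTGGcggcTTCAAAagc
Cenpw (chr10:30200541-30200660, minus strand): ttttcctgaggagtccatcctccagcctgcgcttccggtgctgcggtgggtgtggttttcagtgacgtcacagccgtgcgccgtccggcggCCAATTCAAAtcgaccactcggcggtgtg
Ect2 (chr3:27153879-27153998, minus strand): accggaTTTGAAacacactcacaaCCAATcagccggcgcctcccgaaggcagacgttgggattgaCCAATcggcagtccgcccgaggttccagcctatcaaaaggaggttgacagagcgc
Espl1 (chr15:102296173-102296292, plus strand): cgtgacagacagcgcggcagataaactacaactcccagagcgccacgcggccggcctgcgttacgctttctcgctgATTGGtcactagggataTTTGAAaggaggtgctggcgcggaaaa
Prc1 (chr7:80294356-80294475, plus strand): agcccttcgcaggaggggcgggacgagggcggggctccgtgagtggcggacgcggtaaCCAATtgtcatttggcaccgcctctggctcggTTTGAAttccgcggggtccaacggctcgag
Top2a (chr11:99024190-99024309, minus strand): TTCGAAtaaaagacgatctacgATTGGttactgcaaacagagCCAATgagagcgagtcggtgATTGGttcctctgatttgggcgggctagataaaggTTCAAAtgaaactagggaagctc
Ube2c (chr2:164769809-164769928, plus strand): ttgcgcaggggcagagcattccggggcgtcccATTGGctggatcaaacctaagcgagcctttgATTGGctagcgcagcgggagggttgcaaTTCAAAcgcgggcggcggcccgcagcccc

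Positions are counted from the RefSeq start, 31 (Ube2c), 26 (Prc1), 27 (Espl1) and 9 (Cdc20) bases downstream of the GENCODE gene start. The ends of these stretches thus lie inside the GENCODE gene. In Ube2c the CHR starts at -29, with the nearest CCAAT at -57, and in Prc1 at -30 with a CCAAT at -62. In Espl1 it starts at -27 with a CCAAT at -44, and in Cdc20 at -18 with CCAAT at -53 and -8. In Top2a 3 CCAAT boxes lie between a CHR at -120 and another at -23. In Cenpn the CHR starts at -9 with a CCAAT at -18. In Ect2 the order is reversed, with the CHR at -114, upstream of CCAAT at -96 and -55. In Cenpw the motifs overlap. The fold changes of these genes ranged from 1.19 for Cenpw to 3.09 for Top2a on the log2 scale.

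**Figure D5:**
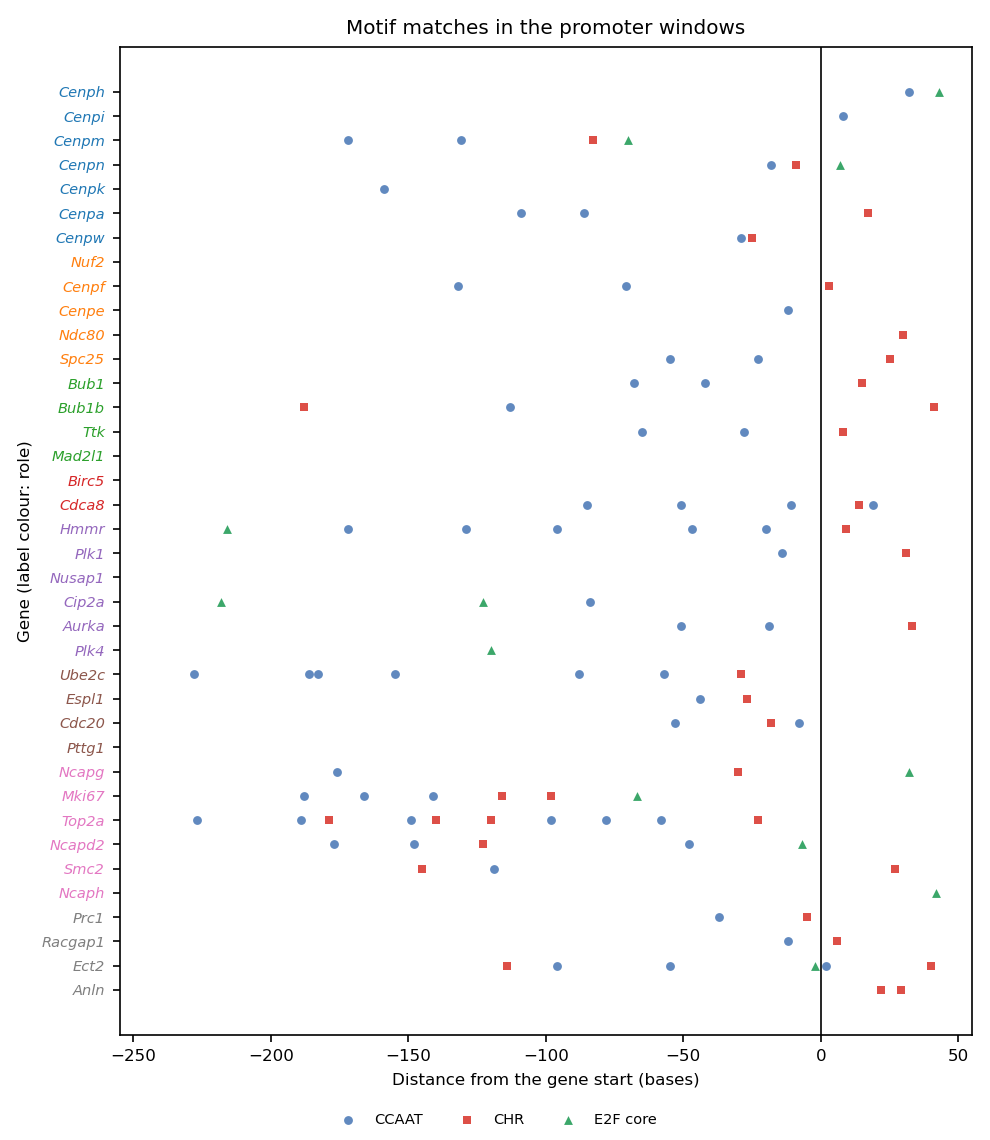
Marks give the positions of CCAAT (blue circles), CHR (red squares) and E2F core (green triangles) matches in the promoter window of each gene. The horizontal axis gives the distance from the RefSeq start in bases, and the vertical axis 38 genes, coloured by role. There is 1 window per gene (for Prc1 the other of its windows than the one printed). CHR matches gather near the start, and CCAAT matches lie mostly upstream of it.

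Most markers of myeloid cells were higher in ALI, where 18.9% of all genes tested were called higher. The other lists had falls, mixed calls or no call. Of 8 monocyte and interstitial macrophage markers 7 rose, and their sum went from 125.5 to 151 CPM in controls to 585.8 to 858 CPM in ALI. All 7 neutrophil markers tested rose, and the sum of this list went from 86.85 to 140.7 CPM to 161.2 to 394.5 CPM. The groups overlapped for S100a8, S100a9, Cxcr2 and Mmp9, and not for Csf3r, Mmp8 and Retnlg. In ALI 3 Mmp9 stood at 8.63 CPM, below the lowest control at 11.7 CPM. Of 8 alveolar macrophage markers 6 rose, with control sums of 197 to 6179 CPM, the top value being control 5 with its adipose Fabp4, and ALI sums of 848 to 1126 CPM. Of the 9 markers listed for granulocyte progenitors, 5 were tested and 3 rose. The 9 summed to 4.34 to 15.4 CPM in controls and to 40.2 to 74.8 CPM in ALI. Most of that was Ltf, at a mean of 41.4 CPM in ALI, while Elane, the defining protease of early granulocytes, had 87 reads in all ALI samples and 7 in controls. Their part in the rise of the 44 genes was not tested.

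Other cell types were read in the same way, beside 17.7% of all genes tested called lower and 18.9% higher. The 10 thymocyte and thymus markers summed to 8.86 to 12.8 CPM in controls and 5.23 to 9.58 CPM in ALI, with 1 of the 3 tested lower. The untested ones had few reads and went both ways. Rag2 and Ptcra had no reads in ALI, but only 1 and 2 over all controls. Rag1 had 6 reads in controls and 3 in ALI, and Arpp21 16 and 15. Dntt had 4 reads in controls and 24 in ALI, Psmb11 0 and 8, and Foxn1 0 and 4. Of 5 erythroid precursor markers tested 1 rose (Ermap, by 1.79) and 2 fell. The 8 markers found summed to 92.2 to 321 CPM in controls and to 30.9 to 60.3 CPM in ALI. Most of that was Alas2, at means of 166.3 CPM in controls and 35.4 CPM in ALI. Of 8 B cell and germinal centre markers 4 fell and none rose. Of 8 T cell markers 2 fell and none rose, a share near that of all genes. All 8 capillary endothelial markers fell, as did 5 of 6 alveolar type 1 markers, while alveolar type 2 markers went both ways (2 higher and 1 lower of 7). Of 4 markers of transitional alveolar epithelium 3 rose and 1 fell, and of 7 fibroblast markers 2 rose, among them Col1a1 by 1.55, and 4 fell. None of these lists shows which cells held the mitotic transcripts.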

How the data were processed

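Raw counts per gene in 12 mouse lung libraries, deposited by the authors as whole numbers, were used as given. Per the submitters' processing notes, fastp, HISAT2 and featureCounts and the build GRCm38/mm10 were used; versions and strand settings are not given in the sources used here. Genes were tested with edgeR 4.0.16 (R 4.3.3): filterByExpr at a minimum count of 10, TMM scaling, a robust quasi-likelihood F test of 6 ALI against 6 control samples, and Benjamini-Hochberg adjustment over 16185 genes at 0.05. The procedure was tested on simulated data. CPM values use TMM-scaled library sizes. Ratios of counts within a sample, with 0.5 added, were compared by a 2-sided exact permutation test. Gene positions are from GENCODE M21 on GRCm38, since the deposited positions differ from it. Alternatives were DESeq2 1.42.0, limma-voom (limma 3.58.1), other scalings and filters, a replicate block and leaving samples out. The 44 genes, the lists, the pairs and the motifs were chosen with earlier results of these data known. Values are given by sample, as lowest, median and highest, for the gene of each role with the highest CPM per kilobase and those with the largest and smallest fold change; Cenpk was added because its groups overlapped; of each other list the 3 called genes with the smallest p, and called genes of the opposite direction, are named, except 1 that is not reported here.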

Additional observations from a re-analysis of the deposited data

Results flagged for a closer look

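For 8 of the 134 groups of 6 values examined, the highest or lowest sample lay farther from the nearest other than Dixon's critical value allows; chance flags about 1 in 20 groups. Of the CPM values, ALI 2 was high for Nuf2 (20.67, nearest other ALI sample 15.48), ALI 6 was low for Cenpe (16.15, nearest 25.28) and ALI 3 was low for Ncapd2 (37.02, nearest 43.58). Of the log2 ratios, control 3 was low for Ncapg over Ncapg2 (-4.193, nearest control -2.675) and control 4 for Cenph over Cenpc1 (-6.311, nearest -4.719). Control 5, the sample with adipose transcripts, was low for Ncaph over Ncaph2 (-3.993, nearest -3.252) and for Bub1b over Bub3 (-5.612, nearest -4.38). ALI 1 was low for Ndc80 over Mis12 (-2.946, nearest ALI sample -2.075). In none of these 8 did the outlying sample bring the groups to overlap.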

How the results depend on the processing

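Over the 21 other settings of the fit, 43 or 44 of the 44 genes were called higher and 0 lower, and 43 to 44 higher when 1 sample was left out. The one call lost was that of Cenpw, in 9 of the 12 fits without 1 sample. The median log2 fold change of the 44 genes was 2.57 with limma-voom and sample weights, and 2.32 to 2.49 without 1 sample. The number of ratios called lower was 2 when a count of 5 was added in place of 0.5, and 1 to 2 without 1 sample (2 without control 4, 5 or 6 or ALI 3, where Aurka over Aurkb passed); these moves come with the other pseudocount and with fewer samples. The ratio of Racgap1 to Anln was not called, and its log2 difference, ALI minus control, was -0.0245 without control 4. That difference ranged up to 0.1555 without 1 sample (control 5) and was 0.1867 without control 5 and ALI 2. A fit with the replicate number as a block called 2639 genes higher and 2183 lower, all 44 listed genes among the higher, with a median of 2.41. Deviations of same-numbered samples correlated positively only for number 1 (r = 0.266, the others -0.268 to -0.0718). Control 5 and ALI 2, of different numbers, reached r = 0.27. The labels state no pairing, and these correlations cannot show whether samples were paired. Over all genes, 2758 to 3791 were called higher and 2411 to 3432 lower without 1 sample. Depth limits Cenph, Cenpk, Cenpw and Cdc25c most, with 49 to 97 reads each over all controls.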
